A study of Mus musculus with 24 samples.

Results

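MHC class I molecules and the machinery that loads them with peptide are described here in the mouse hypothalamus, through 7 genes that could be read singly on the array. The list named 10 genes: B2m, H2-K1, H2-D1, H2-Q4, H2-T23, Tap1, Tap2, Tapbp, Psmb8 and Psmb9. A gene was taken where a probe set (the group of short probes that reads it) was annotated to that gene alone, and if several were, the one with the highest mean over all arrays was kept. H2-K1, H2-D1 and H2-T23 had only probe sets annotated to several genes and were skipped, which left 7 of the 19937 genes analysed. Each of the 7 had exactly 1 such probe set, so this choice removed nothing. Tapbp also had 2 probe sets annotated to several genes, whose values are not given here. The probe sets were thus chosen by annotation and mean signal, which use no difference between strains or ages. The list of genes itself was drawn up with earlier results of these data known.

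Whole hypothalamus of single male mice was hybridised to 24 arrays, n = 6 per group, without pooling. The groups were BPH/2J at 26 weeks, BPN/3J at 26 weeks, BPH/2J at 6 weeks and BPN/3J at 6 weeks. BPH/2J is an inbred hypertensive strain and BPN/3J an inbred normotensive one, no group was treated, and tissue was taken when blood pressure is at its daily peak. High blood pressure and the other inherited differences between the strains cannot be told apart in this design. Values are RMA values, which are background-subtracted, equalised between arrays and given on a log2 scale, so that a difference of 1 is a doubling. Levels of different genes were not compared with each other, because probe sets differ in brightness.

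A class I molecule is a heavy chain, made by genes such as H2-K1, H2-D1 and H2-Q4, held together with a light chain, beta-2 microglobulin, the product of B2m. Proteasomes cut proteins into peptides, the Tap1-Tap2 transporter pumps them into the endoplasmic reticulum, and tapasin (Tapbp) holds the heavy chain at the transporter while it is loaded. Interferons raise most of these genes and swap immunoproteasome subunits such as Psmb8 and Psmb9 into the proteasome. In the healthy brain the pathway is expressed at low levels, mainly by endothelium and microglia, and class I molecules on neurons are known for a part in the pruning and plasticity of synapses.

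The arrays were evenly scaled, with medians between 5.89 and 6.09 and a mean correlation of 0.986 to 0.997 with the other arrays of the group. On the first component of the deviations from group means, which held 38.2% of their variance, 26-week replicates 5 and 6 of both strains scored 16.9 to 20.7 and replicates 1 to 4 of both strains -13.9 to -2.06. The labels give no reason for this split, which fell evenly on the strains. The hypothalamic markers were present in all groups (mean of 17 genes, 7.12 to 8.70). At 6 weeks 11 of the 17 were higher in BPH/2J and 0 lower, with a median difference of 0.70. Of all genes, 7.42% were called in either direction at that age. Markers of the neighbouring thalamus were present too, and their mean over 16 genes was 7.76 to 9.26 in BPH/2J against 9.15 to 9.52 in BPN/3J at 6 weeks, with 11 genes lower and 0 higher. At 26 weeks it was 9.27 to 9.48 in BPH/2J and 8.76 to 9.52 in BPN/3J.

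B2m, the light chain, was lower in BPH/2J at both ages, and it was the only one of the 7 genes of which that held. At 26 weeks the lowest, median and highest values were 9.28, 9.64 and 9.79 in BPH/2J, against 10.21, 10.45 and 10.73 in BPN/3J. At 6 weeks they were 9.48, 9.79 and 9.96 in BPH/2J, against 10.29, 10.47 and 10.87 in BPN/3J. Every BPH/2J mouse thus lay below every BPN/3J mouse, within each age and across ages. Such a complete separation with BPH/2J lower was seen in 0.883% of all genes at 26 weeks and in 2.78% at 6 weeks.

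The B2m difference (BPH/2J minus BPN/3J) was -0.83 ± 0.10 log2 units at 26 weeks (SE, n = 6 per group, 95% interval -1.05 to -0.62, adjusted p = 7.23e-06 in limma). At 6 weeks it was -0.77 ± 0.10 (-0.99 to -0.56, adjusted p = 1.79e-05). These are 0.562 and 0.585 times the BPN/3J signal. By size the difference ranked 82 of 19937 genes at 26 weeks and 175 at 6 weeks. The change of the strain difference between the ages was -0.06 ± 0.15 (-0.36 to 0.24, adjusted p = 0.943). In bulk tissue, fewer cells of a type and less RNA per cell cannot be told apart. The difference was -0.84 within 26-week replicates 1 to 4 and -0.82 within replicates 5 and 6, and it passed the test in both. With the thalamus marker mean as a covariate the B2m difference was -1.05 at 6 weeks, but that mean itself differed between the strains at this age.

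**Figure D1:**
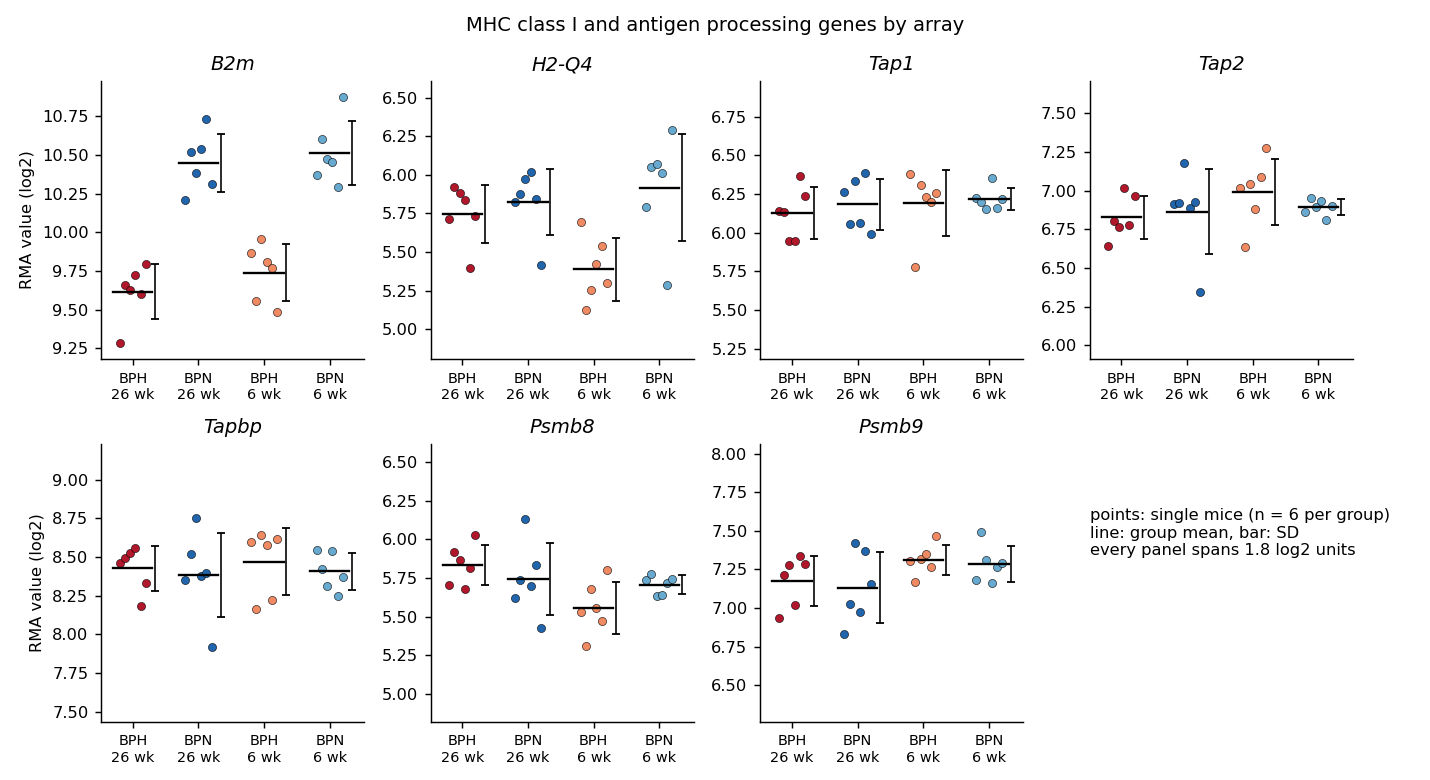
RMA values (log2) of the 7 genes in single mice, 6 per group, with the group mean as a line and the SD as a bar; every panel spans the same height in log2 units. B2m lies at 9.28 to 9.96 in BPH/2J and at 10.21 to 10.87 in BPN/3J, while the groups overlap in the other 6 panels.

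The heavy chain H2-Q4, a class I gene of the Q region of the mouse MHC that is less polymorphic than the classical ones, was lower in young BPH/2J mice. At 26 weeks it was 5.39, 5.78 and 5.92 (lowest, median, highest) in BPH/2J and 5.42, 5.86 and 6.01 in BPN/3J. At 6 weeks the values were 5.12, 5.36 and 5.69 in BPH/2J and 5.29, 6.03 and 6.29 in BPN/3J. The strains overlapped broadly at 26 weeks, and at 6 weeks through a single BPN/3J mouse, replicate 5, which lay among the BPH/2J mice. The difference was -0.08 ± 0.13 (-0.35 to 0.19, adjusted p = 0.896) at 26 weeks. At 6 weeks it was -0.53 ± 0.13 (-0.80 to -0.26, adjusted p = 0.0120), or 0.693 times the BPN/3J signal. A direct test of the change with age gave 0.45 ± 0.19 (0.07 to 0.84, adjusted p = 0.352), so a dependence on age was not established. The call at 6 weeks was kept when any single array was left out (-0.65 to -0.45).

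H2-Q4 was dim, its mean of 5.72 lying above 67.2% of the 11799 probe sets without an annotated gene. Class I genes are near-identical over long stretches, and how far the probes of this set also read its relatives was not tested. The 7 probe sets annotated to several class I genes give a partial view of those relatives and of the 3 skipped genes, without saying which gene is read. In a fit over all 34760 probe sets, 1 of the 7 was lower in BPH/2J at 6 weeks (-0.27 ± 0.07, adjusted p = 0.0391) and 0 passed at 26 weeks. The one that passed is among the 3 that include a skipped gene, and is annotated to H2-T23 and H2-T-ps. The 2 that include H2-K1 and H2-D1 did not pass at either age (-0.20 and -0.15 at 6 weeks, -0.07 and -0.09 at 26 weeks). The differences of all 7 ran from -0.33 to 0.15 at 26 weeks and from -0.39 to 0.28 at 6 weeks.

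The peptide transporter did not differ detectably between the strains. Tap1, one chain of it, was 5.94, 6.14 and 6.37 (lowest, median, highest) in BPH/2J and 5.99, 6.16 and 6.39 in BPN/3J at 26 weeks. At 6 weeks it was 5.78, 6.24 and 6.38 in BPH/2J and 6.16, 6.21 and 6.36 in BPN/3J. The strains overlapped at both ages, with a difference of -0.05 ± 0.09 (-0.24 to 0.14) at 26 weeks and -0.03 ± 0.09 (-0.22 to 0.16) at 6 weeks. Tap2, the other chain, was 6.64, 6.79 and 7.02 in BPH/2J and 6.35, 6.92 and 7.18 in BPN/3J at 26 weeks. At 6 weeks Tap2 was 6.64, 7.03 and 7.27 in BPH/2J and 6.81, 6.90 and 6.95 in BPN/3J. Its groups overlapped as well, and the differences were -0.04 ± 0.10 (-0.25 to 0.18) at 26 weeks and 0.10 ± 0.10 (-0.12 to 0.31) at 6 weeks. None of the 4 differences passed (lowest adjusted p 0.730).

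Tapbp, the gene of the loading chaperone tapasin, was 8.18, 8.48 and 8.56 in BPH/2J and 7.92, 8.39 and 8.75 in BPN/3J at 26 weeks (lowest, median, highest). The 6-week values were 8.16, 8.59 and 8.65 in BPH/2J and 8.25, 8.40 and 8.55 in BPN/3J. BPN/3J mice lay on both sides of the BPH/2J mice at 26 weeks, and BPH/2J mice on both sides of the BPN/3J mice at 6 weeks. The difference was 0.04 ± 0.11 (-0.18 to 0.26, adjusted p = 0.943) at 26 weeks and 0.06 ± 0.11 (-0.16 to 0.29, adjusted p = 0.850) at 6 weeks.

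Of the immunoproteasome subunits, Psmb8 was 5.68, 5.84 and 6.03 in BPH/2J and 5.43, 5.72 and 6.13 in BPN/3J at 26 weeks (lowest, median, highest). At 6 weeks Psmb8 was 5.31, 5.54 and 5.80 in BPH/2J and 5.63, 5.73 and 5.78 in BPN/3J. Strain differences were 0.09 ± 0.09 (-0.09 to 0.28, adjusted p = 0.775) at 26 weeks and -0.15 ± 0.09 (-0.34 to 0.04, adjusted p = 0.430) at 6 weeks, with overlapping groups. Psmb9, the subunit that replaces Psmb6 in the immunoproteasome, was 6.94, 7.25 and 7.34 in BPH/2J and 6.83, 7.09 and 7.42 in BPN/3J at 26 weeks. It was 7.17, 7.31 and 7.46 in BPH/2J and 7.16, 7.28 and 7.49 in BPN/3J at 6 weeks. The strains could not be separated, at 0.05 ± 0.09 (-0.14 to 0.23) at 26 weeks and 0.03 ± 0.09 (-0.16 to 0.21) at 6 weeks.

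Over the 7 genes, then, limma called 1 at 26 weeks, lower in BPH/2J, where 1.34% of all 19937 genes were called lower and 2.67% in either direction. At 6 weeks it called 2 lower and 0 higher, where 4.42% of all genes were lower and 7.42% were called in either direction. B2m was among the 0.813% of genes lower at both ages. These shares are larger among the 7 genes than among all genes but rest on 1 or 2 genes. The 7 genes were also chosen with earlier results of these data known. Larger shares could follow from that choice and are no test of the list. The median difference of the 7 was -0.04 at 26 weeks and -0.03 at 6 weeks, against 0.01 at both ages for all genes. The interaction of strain and age called 0 of the 7 in limma, against 0.0301% of all genes. Its unadjusted p was below 0.05 for 1 of the 7, H2-Q4, and for 2160 of all 19937 genes.

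**Figure D2:**
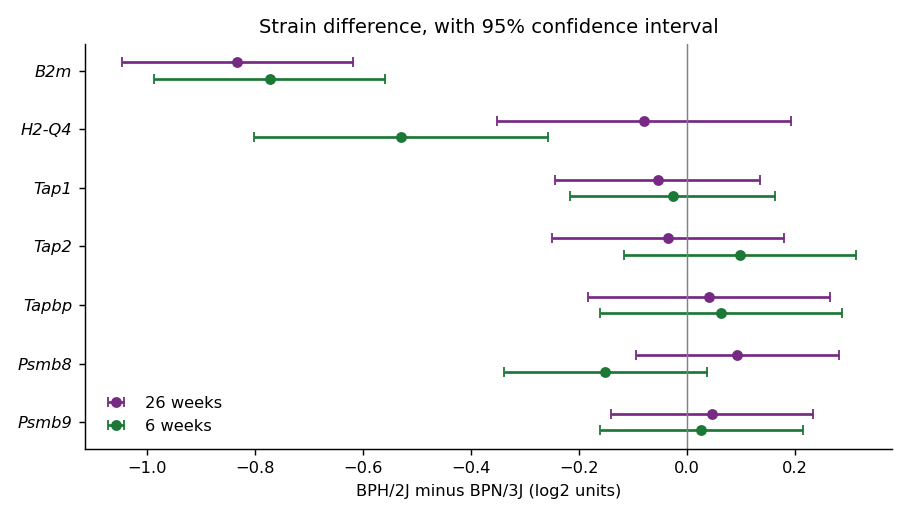
Strain difference (BPH/2J minus BPN/3J, log2 units) of each of the 7 genes at 26 weeks and at 6 weeks, with 95% confidence intervals from limma. The B2m intervals lie wholly below 0 at both ages, that of H2-Q4 at 6 weeks, and the intervals of the other 5 genes include 0.

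**Figure D3:**
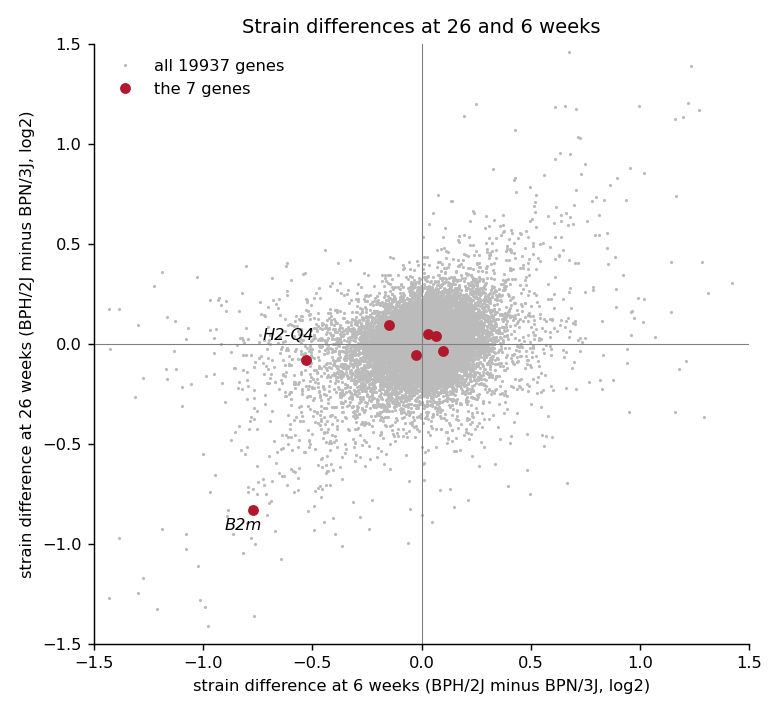
Strain difference at 6 weeks (horizontal, log2) against that at 26 weeks (vertical, log2) for all 19937 genes in grey and the 7 genes in red; 31 genes lie outside the axes. B2m lies in the lower left, at -0.83 at 26 weeks and -0.77 at 6 weeks, H2-Q4 at -0.08 at 26 weeks and -0.53 at 6 weeks, and the other 5 near the centre.

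Within BPH/2J, Psmb8 was higher at 26 than at 6 weeks, by 0.28 ± 0.09 (0.09 to 0.47, adjusted p = 0.0373), with overlapping groups. It was the 1 of the 7 genes that passed, where 8.23% of all genes were called higher and 16.9% in either direction. This call was lost when 26-week BPH/2J replicate 2, 3 or 6 or 6-week BPH/2J replicate 1, 2, 4 or 5 was left out (0.23 to 0.28, highest adjusted p 0.0816). It was also lost with the thalamus marker mean as a covariate (0.47, adjusted p = 0.260), a mean that differed between the same groups of mice. H2-Q4 stood at 0.36 ± 0.13 (adjusted p = 0.0635). It passed when 26-week BPH/2J replicate 5, 26-week BPN/3J replicate 6, 6-week BPH/2J replicate 1 or 6-week BPN/3J replicate 5 was left out (0.36 to 0.43).

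The other 5 genes showed age differences in BPH/2J between -0.16 for Tap2 and -0.04 for Tapbp, and B2m was at -0.12 ± 0.10 (adjusted p = 0.441). Within BPN/3J, 0 of the 7 passed in limma, against 12.3% of all genes in either direction. The unadjusted p was below 0.05 for 0 of the 7 and for 5834 of all 19937 genes. In BPN/3J B2m was at -0.06 ± 0.10, Psmb8 at 0.03 ± 0.09 and Psmb9, the largest, at -0.15 ± 0.09 (adjusted p = 0.264). The median age difference of the 7 was -0.06 in BPH/2J and -0.04 in BPN/3J, against -0.03 in both strains for all genes.

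The genes lie in 4 places in the genome, with B2m on chromosome 2 and the other 6 on chromosome 17. Psmb9, Tap1, Psmb8 and Tap2 follow each other directly in gene order. Among the 10 nearest analysed genes around B2m, 5 on each side, 1 was called lower in BPH/2J at 26 weeks and 0 at 6 weeks. That gene was Spg11, at -0.33 ± 0.07 at 26 weeks (adjusted p = 0.0103) and -0.17 ± 0.07 at 6 weeks. Around H2-Q4 the gene called was the class I gene H2-Q5, next to it, at 6 weeks and not at 26 weeks. Around Tapbp it was Zbtb22 (-0.25 at 6 weeks, adjusted p = 0.0365), and around the Tap1 block 0 of 10 passed. No neighbour of any of the 7 genes was called at both ages. Of all genes, 1.34% were called lower at 26 weeks and 4.42% at 6 weeks. The strains may differ in sequence under the probes of a gene, and the part of such differences in these values was not tested.

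Promoters from RefSeq (GRCm38.p6, the C57BL/6J reference, not these strains), 250 bases before to 50 after the gene start, were matched for 6 of the 7 genes, all but Tap2. Those of B2m and H2-Q4, which were called between strains, are shown with those of Tap1 and Psmb8, which were not. Capitals mark matches to the interferon response element core (TTTC, any 2 bases, TTTC), the interferon-gamma activated site (TTCNNNGAA) and the NF-kB consensus, each searched on both strands. B2m lies at chr2:122147437-122147736, H2-Q4 at chr17:35379367-35379666, Tap1 at chr17:34187306-34187605 and Psmb8 at chr17:34197945-34198244, all on the plus strand.
B2m: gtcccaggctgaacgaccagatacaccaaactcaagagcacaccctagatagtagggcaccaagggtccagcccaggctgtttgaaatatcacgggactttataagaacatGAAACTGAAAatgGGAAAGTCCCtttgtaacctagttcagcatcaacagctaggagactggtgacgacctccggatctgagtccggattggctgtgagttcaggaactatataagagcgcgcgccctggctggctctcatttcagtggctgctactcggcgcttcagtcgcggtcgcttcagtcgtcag
H2-Q4: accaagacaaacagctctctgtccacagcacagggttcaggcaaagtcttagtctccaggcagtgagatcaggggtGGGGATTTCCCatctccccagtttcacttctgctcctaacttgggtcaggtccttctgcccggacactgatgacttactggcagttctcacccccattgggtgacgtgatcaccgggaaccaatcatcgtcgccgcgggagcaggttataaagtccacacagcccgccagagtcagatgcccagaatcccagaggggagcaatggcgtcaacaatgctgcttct
Tap1: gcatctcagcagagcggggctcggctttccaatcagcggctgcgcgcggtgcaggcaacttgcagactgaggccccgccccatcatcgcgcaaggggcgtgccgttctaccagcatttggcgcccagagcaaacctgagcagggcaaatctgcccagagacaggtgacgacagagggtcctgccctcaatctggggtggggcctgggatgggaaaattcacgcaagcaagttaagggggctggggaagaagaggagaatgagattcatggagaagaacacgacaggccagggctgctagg
Psmb8: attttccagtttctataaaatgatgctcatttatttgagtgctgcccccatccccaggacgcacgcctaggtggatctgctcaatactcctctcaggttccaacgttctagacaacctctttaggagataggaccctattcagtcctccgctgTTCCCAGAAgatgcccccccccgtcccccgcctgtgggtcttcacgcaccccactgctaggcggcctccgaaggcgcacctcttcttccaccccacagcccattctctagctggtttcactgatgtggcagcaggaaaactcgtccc

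The B2m promoter held the interferon response core at -139 to -130, as GAAACTGAAA on the minus strand of the motif, and an NF-kB match at -126 to -117, and the matches do not overlap. H2-Q4 held NF-kB matches that overlap each other between -174 and -164 and a cAMP response core (TGACGT) at -73 to -68. Psmb8 held an interferon-gamma site, TTCCCAGAA, at -97 to -89. Tap1 held none of the motifs in capitals. The Tap1 and Psmb9 promoters run in opposite directions and share 275 of their 300 bases. Of 27025 mouse promoters of this length, 3.49% held the interferon response core, 8.47% the interferon-gamma site, 4.35% the NF-kB consensus and 7.64% the cAMP response core. A CCAAT box was in 37.9% of them and in the promoters of B2m, H2-Q4, Tap1, Tapbp and Psmb9. These matches describe the reference letters.

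Other genes of the pathway were read from lists of known members. Of all genes, 2.67% passed in either direction at 26 weeks and 7.42% at 6 weeks. Of 20 measured heavy chains and relatives, 1 passed at 26 weeks, higher in BPH/2J, and 2 passed at 6 weeks, 1 in each direction. The higher one was Cd1d1, a class I-like molecule that presents lipids and pairs with beta-2 microglobulin, by 0.50 ± 0.11 at 26 weeks and 0.55 ± 0.11 at 6 weeks (adjusted p = 0.0113 and 0.00240). Cd1d1 thus differed in the direction opposite to B2m. At 6 weeks it was 5.72, 5.81 and 6.18 (lowest, median, highest) in BPH/2J, against 4.86, 5.38 and 5.56 in BPN/3J. The lower one was H2-Q5 at 6 weeks, with 6.40, 6.78 and 6.87 in BPH/2J and 6.95, 7.08 and 7.40 in BPN/3J. H2-Q5 differed there by -0.40 ± 0.10 (adjusted p = 0.0145), and by -0.15 ± 0.10 at 26 weeks. H2-M3, which presents formylated peptides, was at -0.17 ± 0.13 and -0.03 ± 0.13 at 26 and 6 weeks.

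Of 16 other loading and processing genes, 0 passed at 26 weeks and 1 was higher at 6 weeks. That was Psme1, a subunit of the proteasome activator PA28, at 0.32 ± 0.08 (adjusted p = 0.0151), and its partner Psme2 stood at 0.22 ± 0.09 (adjusted p = 0.187). Psmb10, which joins Psmb8 and Psmb9 in the immunoproteasome, was at 0.17 ± 0.09 at 26 weeks and -0.06 ± 0.09 at 6 weeks. Of the 14 constitutive proteasome subunits 0 passed at either age, among them Psmb5, Psmb6 and Psmb7, which the immunoproteasome subunits replace (-0.08 to 0.09). Of all genes, 2.67% were called in either direction at 26 weeks and 7.42% at 6 weeks.

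Among 22 regulators of class I expression, 1 was lower in BPH/2J at 26 weeks and 3 at 6 weeks, with 0 higher. Of all genes, 1.34% and 4.42% were called lower at these ages. Ifngr2, the signal-transducing chain of the interferon-gamma receptor, was lower at both ages. It was 8.32, 8.50 and 8.85 (lowest, median, highest) in BPH/2J and 9.36, 9.44 and 9.71 in BPN/3J at 26 weeks. At 6 weeks it was 8.78, 8.98 and 9.14 in BPH/2J and 9.75, 9.86 and 9.90 in BPN/3J. As with B2m, the strains did not overlap at either age, and the differences were -0.95 ± 0.08 and -0.86 ± 0.08 (adjusted p = 9.14e-09 and 7.83e-08). Such a separation was seen in 0.883% of all genes at 26 weeks and 2.78% at 6 weeks. Ifngr1, the ligand-binding chain, was at -0.01 ± 0.06 and 0.05 ± 0.06. Stat2, a transcription factor of type I interferon signalling, and Ifnar1, a chain of the type I receptor, were lower at 6 weeks (-0.25 ± 0.07 and -0.23 ± 0.07, adjusted p = 0.0273 and 0.0387). Nlrc5, the transactivator of class I genes, and Irf1, an interferon response factor, lay between -0.09 and 0.12 and did not pass.

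**Figure D4:**
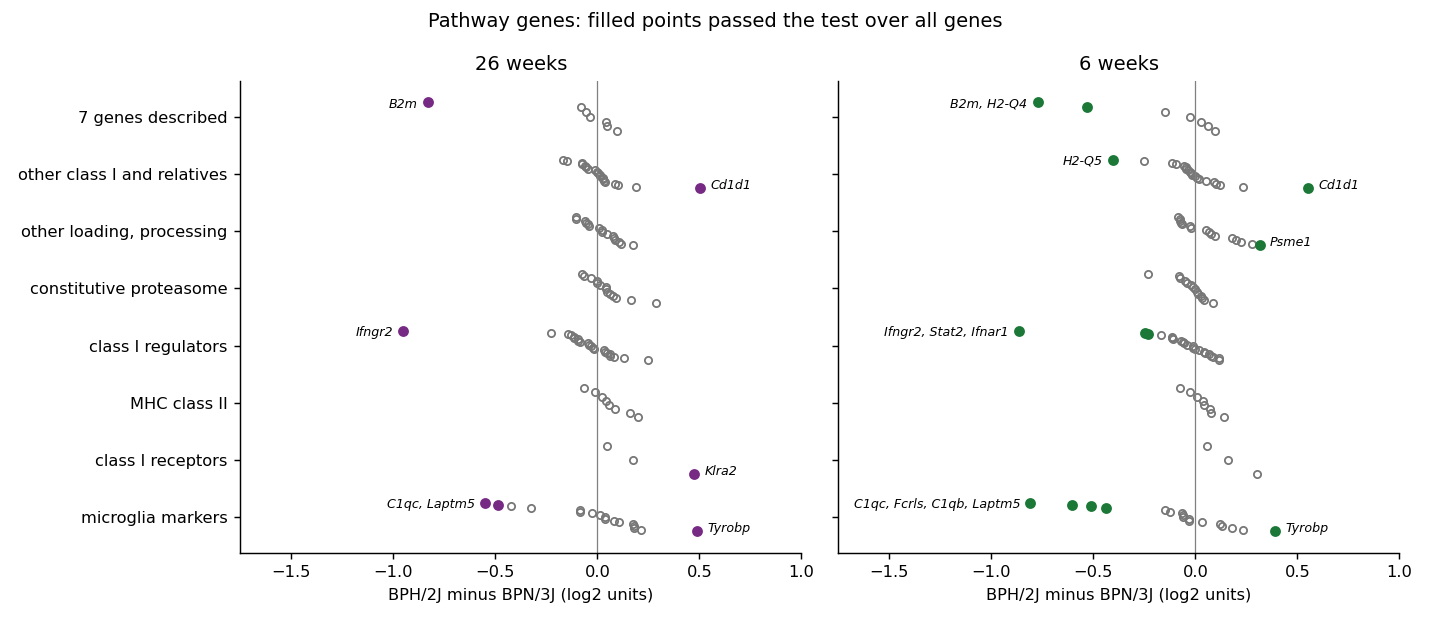
Strain difference (BPH/2J minus BPN/3J, log2 units) of each measured gene of 8 lists, at 26 weeks on the left and 6 weeks on the right; each point is 1 gene, filled where its adjusted p was below 0.05. B2m (-0.83 and -0.77), Ifngr2 (-0.95 and -0.86) and the microglial C1qc (-0.55 and -0.81) lie on the low side at 26 and 6 weeks and Cd1d1 (0.50 and 0.55) on the high side, while most points lie near 0.

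Microglia, the brain's resident macrophages, are a main class I-expressing cell type, and their markers are given beside B2m. Of 17 measured microglial markers, 3 passed at 26 weeks, 2 of them lower and 1 higher in BPH/2J, and 5 passed at 6 weeks, 4 lower and 1 higher. C1qc, a complement chain, was lower by -0.55 ± 0.09 at 26 weeks and -0.81 ± 0.09 at 6 weeks, and Laptm5 by -0.49 ± 0.09 and -0.44 ± 0.09. Tyrobp, an adaptor of microglial receptors, was higher by 0.49 ± 0.12 and 0.39 ± 0.12. Fcrls and C1qb, another complement chain, were lower at 6 weeks (-0.60 ± 0.15 and -0.51 ± 0.15) and stood at -0.42 ± 0.15 and -0.33 ± 0.15 at 26 weeks. Most of the markers that passed were lower in BPH/2J, but 14 of the 17 were not called at 26 weeks and 12 at 6 weeks. The median difference of the list was 0.04 at 26 weeks and -0.06 at 6 weeks. Of all genes, 2.67% and 7.42% were called in either direction at these ages. The mean of the list was 7.14 to 7.33 in BPH/2J and 6.98 to 7.35 in BPN/3J at 26 weeks, and 7.01 to 7.16 in BPH/2J and 7.06 to 7.30 in BPN/3J at 6 weeks. No marker was at 0 on this scale, and the part of microglia in the B2m difference was not tested.

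For endothelium, 1 of 13 markers was higher at each age and 0 lower, the vessel transporter gene Slco1a4 (0.66 ± 0.11 at 26 weeks and 0.52 ± 0.11 at 6 weeks). The mean of that list was 7.66 to 7.85 in BPH/2J and 7.57 to 7.93 in BPN/3J at 26 weeks, and 7.50 to 7.72 in BPH/2J and 7.64 to 7.74 in BPN/3J at 6 weeks. The 12 T and NK cell markers, 5 B cell markers and 8 MHC class II genes had 0 called between strains at either age in limma. Of all genes, 2.67% were called in either direction at 26 weeks and 7.42% at 6 weeks. The T and NK cell mean was 4.37 to 4.87 over all arrays, near the array medians of 4.60 to 5.25 of unnamed probe sets. Cd74, the invariant chain of class II, was at 0.20 ± 0.15 at 26 weeks and 0.14 ± 0.15 at 6 weeks. Of 3 measured receptors for class I, Klra2 passed at 26 weeks (0.47 ± 0.10, adjusted p = 0.00387) at values of 2.97 to 3.93, below the median of 4.74 of unnamed probe sets, and Pirb was at 0.05 ± 0.12. At 6 weeks 4 of 10 neuron and 5 of 11 oligodendrocyte markers were lower in BPH/2J, against 4.42% of all genes, as the thalamus markers were. Their part in the 6-week differences of B2m and H2-Q4 was not tested. With the thalamus marker mean as a covariate both calls were kept (-1.05 and -0.77). That mean itself differed between the strains at 6 weeks and does not measure neurons or oligodendrocytes, so this fit cannot decide the question.

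How the 7 genes varied together among mice of the same group is given as a description. Over the 24 arrays, all 21 pairs had a positive Pearson correlation of their deviations from group means, between 0.03 for H2-Q4 with Psmb9 and 0.75 for Tap2 with Psmb8. Psmb8 correlated with Psmb9 at 0.66 and with Tapbp at 0.65, and Tap2 with Tapbp at 0.69. B2m correlated at 0.52 with H2-Q4 and at 0.17 to 0.35 with the other 5, where the central 95% of all genes lay between -0.45 and 0.42 against B2m. For the 7 genes the upper limit of that central range was 0.42 to 0.62, and 5 of the 21 pairs lay above the limits of both their genes. These were B2m with H2-Q4, Tap2 with Tapbp, and Psmb8 with Tap2, Tapbp and Psmb9, while the other pairs lay within the range of at least one of the genes. These values are a description over arrays that share the 26-week split; with that split also removed, the pairs lay at 0.18 to 0.81.

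**Figure D5:**
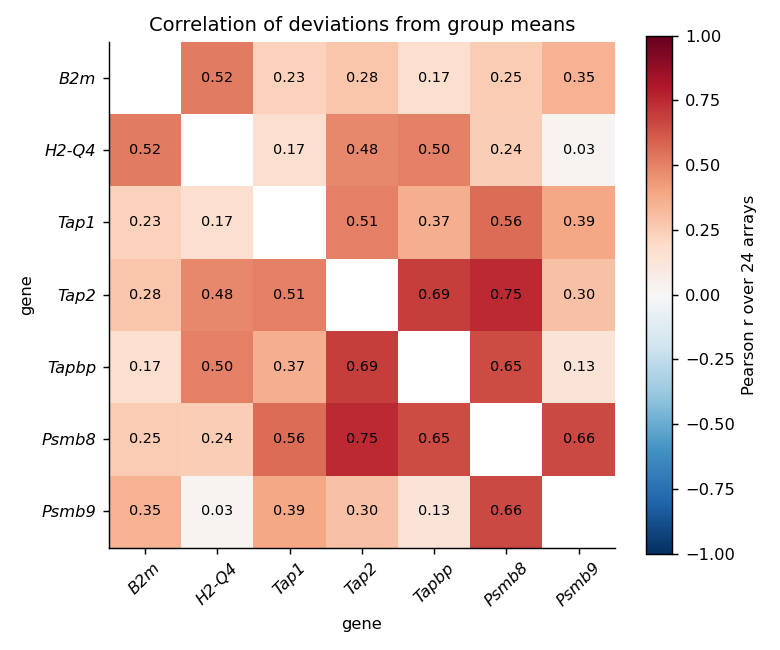
Pearson correlation of the deviations from group means over 24 arrays for each pair of the 7 genes; red is positive, blue negative, and the diagonal is left blank. All 21 pairs are positive, from 0.03 to 0.75, with the highest for Tap2 with Psmb8, then Tap2 with Tapbp and Psmb8 with Psmb9.

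The genes whose deviations were most like those of B2m over the 24 arrays were Rdx, the membrane-actin linker radixin (r = 0.78), the ubiquitin ligase gene Rchy1 (r = 0.74) and Bcap31, an endoplasmic reticulum membrane protein (r = 0.73). For H2-Q4 they were Vgll4 (r = 0.73), C130026L21Rik (r = 0.73) and Pir (r = 0.72). Tap1 was most like Vstm2l (r = 0.88), Derl1 (r = 0.83) and B630019K06Rik (r = 0.82), and Tap2 most like Phf13 (r = 0.83), the guanylate-binding protein gene Gbp5 (r = 0.80) and Syt6 (r = 0.80). Tapbp was most like Nacad (r = 0.89), Wdr54 (r = 0.88) and Ctbp2 (r = 0.86). Psmb8 had Gpr139 (r = 0.85), Dcst1 (r = 0.81) and Gm10741 (r = 0.80), and Psmb9 had Lox (r = 0.81), Iqcf5 (r = 0.81) and Acoxl (r = 0.80). None of the 7 genes was among the 3 most like any other.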

How the data were processed

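Whole hypothalamus from 24 mice was measured on Affymetrix Mouse Gene 1.0 ST arrays. The authors deposited log2 values for 34760 probe sets. Per the submitters' processing notes these came from RMA, which removes shifts shared by a whole array; neither its version nor a genome build is given in the sources used here. Groups and replicate numbers came from sample titles. Probe sets were named from the platform annotation, in which 21640 had 1 symbol, 1321 several and 11799 none; 21553 of the first matched RefSeq genes of GRCm38.p6, used for names and gene order only. Per gene the single-symbol probe set with the highest mean was kept, giving 19937 genes, with no filter on dim genes. Precision is set by how many arrays there are.

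Differences came from limma 3.58.1 in R 4.3.3, with a mean per group over all 24 arrays (20 residual degrees of freedom), moderated statistics and Benjamini-Hochberg adjustment over all genes at a threshold of 0.05. The code was tested on simulated data. The members, lists, tests and alternatives were chosen with earlier results of these data known. Genes named are the 7 members; up to 4 called genes of each other list, smallest p first; a fixed set given whether called or not; called neighbours; and the 3 genes most correlated with each member. Ifngr1, the microglial genes beyond the first 4 and the neighbours Spg11 and Zbtb22 were named after their values were seen. Of the 8 astrocyte markers 1 was higher at 6 weeks and 0 passed at 26 weeks; of 17 hypothalamic markers 11 and 2 were higher; of 9 choroid plexus and 2 red blood cell markers 0 passed.

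No arrays of a group were duplicates (lowest mean absolute difference 0.178). Same-numbered arrays were checked for pairing by correlating deviations from group means. For the strain comparison at 26 weeks all 6 pairs were above 0.1 (0.28 to 0.58), but only 2 correlated best with their own number. The split of replicates 5 and 6 from the rest falls along the same numbers, so pairing and that split cannot be told apart. At 6 weeks the pairs lay at -0.30 to 0.10. Alternatives were a replicate block, leaving out each array, only the groups compared, averaged probe sets, a filter on dim genes, array centring, trend and robust moderation, array weights and a thalamus covariate, plus, chosen after seeing the data, an array set term, within-set fits and all probe sets.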

Additional observations from a re-analysis of the deposited data

Results flagged for a closer look

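Of 28 groups of 6 arrays tested over the 7 genes, 4 had an array farther from its neighbours than Dixon's 95% critical value allows, where chance flags about 1 in 20. H2-Q4 was 5.42 in 26-week BPN/3J replicate 6, with the nearest array at 5.82. Tap2 was 6.35 in the same mouse, with the nearest at 6.89. Tap1 was 5.78 in 6-week BPH/2J replicate 2, with the nearest at 6.20, and 6.36 in 6-week BPN/3J replicate 4, with the nearest at 6.22. None of these genes was called in the comparisons of 26-week mice between strains, and no B2m array stood apart in this way. Leaving out any of these arrays kept the call of H2-Q4 at 6 weeks and added none between strains.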

How the results depend on the processing

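B2m was lower in BPH/2J in every setting run, by -0.84 to -0.82 at 26 weeks and -1.05 to -0.74 at 6 weeks, and by -0.88 to -0.77 and -0.82 to -0.70 when 1 array was left out. H2-Q4 passed at 6 weeks in every setting (-0.77 to -0.50). With the replicate block B2m stood at -0.83 at 26 weeks, and the block changed no call of the 7 genes; it raised the interaction count over all genes to 27, against 6 without it. Counts over all genes moved more. For strain at 26 weeks, 532 genes became 248 with only the groups compared, 881 with the array set term and 283 within replicates 5 and 6, and 428 to 721 with 1 array left out. For strain at 6 weeks, 1479 became 2322 with only the groups compared, 3725 with array weights and 199 with the thalamus covariate, and 1034 to 1961 with 1 array left out. The interaction gave 23 with the dim filter, 31 with trend and robust moderation, 683 with weights, 251 with the set term and 0 with the thalamus covariate or all probe sets, and 0 to 496 with 1 array left out. For age in BPH/2J, 3362 became 7475 with weights, 8 with the thalamus covariate and 7479 with the set term, and 2138 to 4838 with 1 array left out. For age in BPN/3J, 2445 became 6416 with weights and 7325 with the set term, and 1034 to 4230 with 1 array left out. Of the 7 genes, 2 were called for age in BPH/2J with only the groups compared, weights or the set term and 0 with the thalamus covariate or all probe sets, with 0 to 2 when 1 array was left out. The added gene was H2-Q4 (0.36, adjusted p = 0.0375 with only the groups compared; 0.45, adjusted p = 0.00818 with the set term), and Psmb8 with all probe sets was at 0.28 (adjusted p = 0.0613). For age in BPN/3J 1 was called with weights, Psmb9 (-0.23, adjusted p = 0.0359). The causes were not tested. Of 1197 values of the 7 genes under alternatives, 1180 kept direction and side of the threshold or were uncalled both times, 58 of them uncalled with the other sign. Fitting only the groups compared was not run for the interaction. Dim genes such as H2-Q4 and Psmb8 lie close to unnamed probe sets, which limits what their differences can show.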

Other observations

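Several genes around the pathway were called between the ages; those named here were chosen after their values were seen. Of the 14 constitutive proteasome subunits 6 were higher at 26 than at 6 weeks in BPH/2J and 2 in BPN/3J, with 0 lower. Of all 19937 genes, 1640 were called higher in BPH/2J and 917 in BPN/3J. In either direction 16.9% and 12.3% of all genes were called. Psma2 rose by 0.44 ± 0.12 log2 units in BPH/2J and 0.45 ± 0.12 in BPN/3J, and Psma6 by 0.33 ± 0.11 and 0.34 ± 0.11. Psmb10, an immunoproteasome subunit, rose by 0.33 ± 0.09 in BPH/2J (adjusted p = 0.0103) and stood at 0.09 ± 0.09 in BPN/3J, and the interaction was not called (adjusted p = 0.490). Canx, the lectin chaperone calnexin that holds new class I heavy chains, was lower at 26 weeks in both strains. Its differences were -0.21 ± 0.05 in BPH/2J and -0.16 ± 0.05 in BPN/3J. Hspa5, the main chaperone of the endoplasmic reticulum, was lower in BPH/2J (-0.28 ± 0.07). Ifngr2 was lower with age in both strains (-0.45 ± 0.08 in BPH/2J and -0.37 ± 0.08 in BPN/3J), whereas B2m was not called. The calls for age over all genes changed with the array set term and with the thalamus covariate, as given above.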
